A study of Mus musculus with 96 samples.

Results

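The matrix metalloproteinases (Mmp), the Adamts proteases and their inhibitors, the tissue inhibitors of metalloproteinases (Timp), were followed across 8 tissues of mice on 2 diets. Every probe was taken whose gene symbol was Mmp or Adamts followed by a number, or Timp1 to Timp4, which gave 75 of the 46632 probes on the array and 41 of the 17711 genes named on it. They were 20 Mmp genes on 32 probes, 17 Adamts genes on 37 probes and 4 Timp genes on 6 probes. The study measured RNA in brown fat, in gonadal, mesenteric, perirenal, inguinal and subcutaneous white fat, in liver and in skeletal muscle, 6 arrays for each tissue and diet and 96 in all. All animals were DBA/2J mice, an inbred strain, dissected at 12 weeks of age after a fast of 2 hours, and one group of each tissue had eaten a high-fat diet for 6 weeks and the other the standard breeding diet. The sex of the mice and the make-up of the diets are not stated in the labels. The study's design text speaks of subcutaneous, gluteal and retroperitoneal pads where the labels say inguinal, subcutaneous and perirenal, and the labels' names are kept here.

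These proteins remodel the matrix between cells. Mmps are zinc proteases, made as inactive precursors, that cut collagens, elastin, laminins and cell surface proteins, and some sit in the cell membrane. Adamts proteases are secreted relatives that bind the matrix, and one group of them cuts the large proteoglycans aggrecan and versican, while Timps bind to the active site of the proteases and block it. In fat, the matrix around adipocytes is rebuilt as the cells enlarge, and macrophages, fibroblasts and vessel cells are known sources of several of these proteases.

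Values are log2 signal intensities after background modelling and normalization, and a probe's level is compared only with the same probe in other samples. The intensities came without detection p-values, so no probe can be called absent. A probe was tested in a tissue where its mean lay above the median of all probes, and a difference was called at an adjusted p under 0.05 from limma. Arrays were normalized together within the set compared. This was the 48 standard-diet arrays for tissue levels, the 36 of fat for contrasts among fats, or the 12 of a tissue for diet. A gene's level therefore differs between these sets, and in liver and muscle it can differ widely. On the standard diet Mmp2 read 9.34 in liver and 13.41 in muscle with all tissues normalized together. Within each tissue alone it read 7.89 and 12.22. How far the place of liver and muscle in the order of tissues depends on this was not tested. The labels call the arrays of a group biological replicates. The fat arrays of high-fat replicates 3 to 6 stood apart. The upper quartile of their intensities was 1.34 to 1.72 times the median, against 1.70 to 2.49 on the 36 standard-diet fat arrays and 1.96 to 2.68 on the fat arrays of high-fat replicates 1 and 2. These 24 dim arrays are all on the high-fat diet, so the leading diet differences in fat are also given without them. The labelled tissues held their own markers: the 6 hepatocyte markers averaged 14.22 in liver, the 5 muscle markers 15.17 in muscle and the 5 brown adipocyte markers 13.41 in brown fat. Other tissue was present too. Muscle markers averaged 13.46 in brown fat and 12.56 in perirenal fat, lymphocyte markers 11.17 in mesenteric and 10.33 in subcutaneous fat, and exocrine pancreas markers 14.06 in mesenteric fat. Some of these markers also differed between the diets: 5 of 6 lymphocyte markers were lower on the high-fat diet in subcutaneous fat (median difference -0.66), 3 of 4 muscle markers tested in gonadal fat (-2.03), and 3 of 5 mesothelium markers in perirenal and 2 of 5 in gonadal fat. Their part in the members' differences was not tested. In bulk tissue, fewer cells of a type and less RNA per cell cannot be told apart.

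Of the 41 genes, 16 were tested in all 8 tissues, 17 in 1 to 7 tissues and 8 in none. The 8 untested genes were the neutrophil collagenase Mmp8, the matrilysin Mmp7, Mmp16, Mmp1b, Mmp20 and Mmp21, the procollagen protease Adamts3, and Adamts13, which cuts von Willebrand factor in blood. Several probes were present for 19 genes, and the brightest over all arrays was used.

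On the standard diet, most of the genes that passed the filter had their highest mean in a white depot and their lowest in liver. Of 29 genes tested over the 8 tissues, 28 differed between tissues, against 94.6% of all features, and Adamts18 did not pass (adjusted p = 0.214). The highest mean lay in inguinal fat for 10 genes, in gonadal fat for 6, and in liver for 4, namely Mmp10, Mmp19, Adamts7 and Adamts8. Of the 4, only Mmp10 differed from the next tissue, muscle (adjusted p = 0.0201). Adamts7 did not differ from inguinal fat (adjusted p = 0.613), nor Mmp19 and Adamts8 from brown fat (adjusted p = 0.398 and 0.164). With each tissue normalized alone, Adamts7 read 7.35 in liver and 8.75 in inguinal fat, and Mmp10 read 7.09 and 7.33. The lowest mean lay in liver for 18. Timp4 had the widest range, at 13.16 ± 0.10 (SD, n = 6) in gonadal fat, 12.88 ± 0.21 in inguinal, 12.56 ± 0.28 in perirenal and 11.92 ± 0.18 in subcutaneous fat. Mesenteric fat at 10.97 ± 0.60, muscle at 10.97 ± 0.18 and brown fat at 10.88 ± 0.31 followed and did not differ from one another beyond their spread, and liver stood at 6.17 ± 0.28. Of the tissues next to each other in the order of a gene's levels, 49 of 203 pairs differed at an adjusted p under 0.05. Such neighbours are the closest tissues by choice, and the share for all features is not given here. The count therefore describes only how well these orders were resolved. Over the 6 fat tissues alone, 28 of 30 genes differed, against 79.8% of all features.

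Mmp2, the gelatinase made by fibroblasts, stood at 14.22 ± 0.45 in inguinal fat, above subcutaneous fat at 13.64 ± 0.49. From subcutaneous fat through muscle at 13.41 ± 0.18 and gonadal fat at 13.34 ± 0.078 to perirenal fat at 13.20 ± 0.26 no tissue differed from the next, while mesenteric fat at 12.47 ± 0.27, brown fat at 11.74 ± 0.31 and liver at 9.34 ± 0.097 each stood below the tissue before it. Mmp3, a stromelysin that cuts proteoglycans and activates other Mmps, separated the depots further. It reached 11.25 ± 0.47 in inguinal and 11.01 ± 0.69 in subcutaneous fat, then 9.87 ± 0.33 in perirenal and 8.90 ± 0.38 in brown fat. Mmp3 was at 8.74 ± 0.45 in mesenteric and 8.16 ± 0.24 in gonadal fat, muscle was at 8.13 ± 0.54 and liver at 6.99 ± 0.20. Mmp12, the macrophage elastase, was highest in gonadal fat at 9.09 ± 0.47 and perirenal fat at 8.88 ± 0.65. No neighbours from gonadal to mesenteric fat (7.77 ± 0.80) differed for Mmp12, brown fat was lower at 7.18 ± 0.26, and liver at 6.60 ± 0.23 and muscle at 6.54 ± 0.14 did not differ. The 10 macrophage markers on the array averaged 9.08 in gonadal, 9.06 in perirenal, 8.85 in inguinal, 9.01 in subcutaneous and 9.19 in mesenteric fat, 7.85 in brown fat, 7.91 in liver and 7.43 in muscle.

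**Figure D1:**
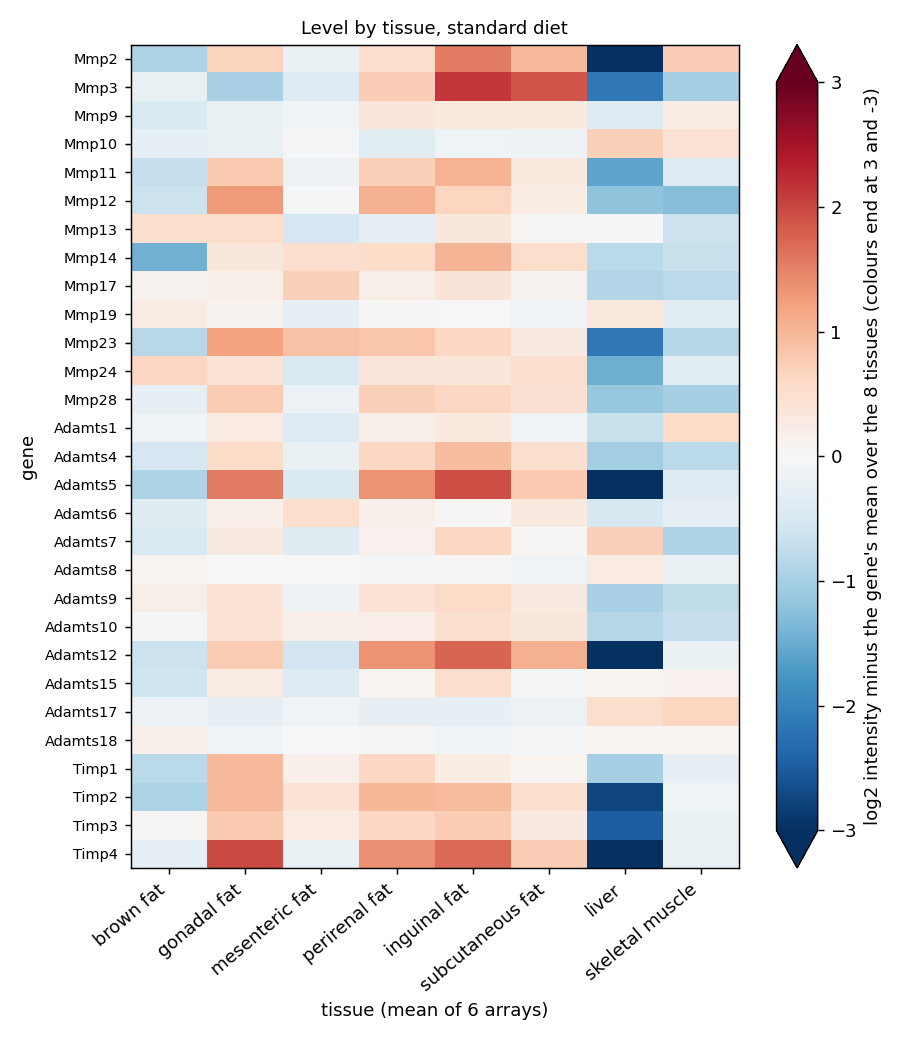
Mean log2 intensity of each tested gene (rows) in each tissue (columns), 6 standard-diet arrays per tissue, minus the gene's own mean over the 8 tissues, so that rows cannot be ranked against each other. The liver column is blue for 18 genes whose lowest mean lay there, and the inguinal column is red for 10 genes whose highest mean lay there.

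Brown fat held less of most of these transcripts than white fat. Of 30 genes tested on the 36 standard-diet fat arrays, 25 differed between brown fat and the mean of the 5 white depots, against 69.6% of all features. Of these, 21 were lower in brown fat (33.6% of all features were) and 4 were higher (36% of all features were). The membrane-bound collagenase Mmp14, which activates Mmp2 on the cell surface, averaged 10.47 in brown and 12.45 in white fat, a difference of -1.98 ± 0.13 (adjusted p = 1.74e-15). The aggrecanase Adamts5 differed by -1.93 ± 0.12 (adjusted p = 7.09e-16), Timp2 by -1.59 ± 0.13 (adjusted p = 1.1e-12), Mmp2 by -1.54 ± 0.14 (adjusted p = 5.56e-12) and Timp1 by -1.31 ± 0.27 (adjusted p = 6.3e-05). The 4 genes higher in brown fat were Mmp13 at 0.59 ± 0.19 (adjusted p = 0.00631), Mmp24, Mmp19 and Adamts18, with differences of 0.37, 0.30 and 0.24. Mmp24 stood at 12.60 in brown fat, at 11.57 in mesenteric fat and at 12.35 to 12.48 in the other white depots. The other Mmp24 probes were far dimmer and were not tested across tissues. With each tissue normalized alone, 1 of them read 7.01 in brown fat and 7.22 to 7.52 in the white depots. The other read 7.02 in brown and 6.74 to 7.22 in the white depots. On that scale the brightest probe read 12.00 in brown, 10.75 in mesenteric and 12.28 to 12.41 in the remaining white depots. None of the 4 passed when arrays were scaled to a common median instead of quantile normalized, and Mmp19 then differed by -0.08 (adjusted p = 0.345). The fibroblast markers averaged 10.2 in brown fat and 11.05 to 11.86 in the white depots, and their part in the difference was not tested.

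Among white depots the split lay mainly in Mmp3. The abdominal depots (gonadal, mesenteric and perirenal) were set against inguinal and subcutaneous fat, and 11 of 30 genes differed, against 21.9% of all features, 9 lower (14% of all features) and 2 higher (7.94%) in the abdomen. Mmp3 averaged 9.33 in the abdominal and 11.58 in the other depots, a difference of -2.25 ± 0.16 (adjusted p = 5.08e-13). Adamts12, which cuts the matrix protein COMP, differed by -0.88 ± 0.10 (adjusted p = 7.39e-08), Mmp2 by -0.87 ± 0.11 (adjusted p = 5.78e-07) and Adamts5 by -0.52 ± 0.10 (adjusted p = 0.000226). A second Adamts12 probe was not tested here. With each depot normalized alone it read 8.07 to 8.11 in the abdominal depots, 8.19 in inguinal and 8.13 in subcutaneous fat. The 2 genes higher in the abdomen were Adamts19 at 1.09 ± 0.10 (adjusted p = 3.12e-10) and Mmp23 at 0.52 ± 0.088 (adjusted p = 4.15e-05). In inguinal and subcutaneous fat Adamts19, at 6.54 and 6.71 on the standard diet, was too dim for the diet tests, so the size of its difference rests on a signal near background there. Mmp14 did not pass at -0.28 ± 0.11 (adjusted p = 0.0571), nor did any Timp, with Timp1 at 0.45 ± 0.22 (adjusted p = 0.153) and Timp4 at -0.16 ± 0.11 (adjusted p = 0.327). On the high-fat arrays of the same depots Timp1 differed by 0.96 (adjusted p = 7.54e-05) and Timp2 by 0.35 (adjusted p = 7.07e-05), while Mmp3 differed by -1.65. Mesothelium markers averaged 8.67 to 9.47 in the abdominal depots and 6.76 to 6.82 in inguinal and subcutaneous fat.

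Members of the family differed between the diets in 5 of the 6 fat tissues. Mmp12 was called higher and Mmp9 lower in 5 fat tissues, Timp1 and Adamts5 higher in 4, and Timp4 lower in 3. In brown fat 7 of 29 tested genes were called, 6 higher and 1 lower, against 15% of all features. In gonadal fat the count was 9 of 31 (6 higher, 3 lower; 12.2% of all features), in perirenal fat 13 of 30 (8 higher, 5 lower; 26.5%), in inguinal fat 11 of 30 (3 higher, 8 lower; 23.6%) and in subcutaneous fat 7 of 30 (6 higher, 1 lower; 19.9%). No gene of 29 was called in mesenteric fat, where 0.648% of all features were, 1 of 18 was called in liver (1.12%) and none of 24 in muscle (0.192%). Of all features, 6.77% were called higher and 8.27% lower in brown fat, 6.12% and 6.05% in gonadal, 13.3% and 13.3% in perirenal, 11% and 12.7% in inguinal and 8.78% and 11.1% in subcutaneous fat. In mesenteric fat these shares were 0.253% and 0.396%, in liver 0.598% and 0.527% and in muscle 0.0935% and 0.099%. The 2 diets did not overlap for 2 genes in brown fat (5.34% of all features), 3 in gonadal (6.25%), 7 in perirenal (12.1%), 3 in inguinal (9.21%), 5 in subcutaneous (7.52%), none in mesenteric (1.95%), 1 in liver (1.32%) and none in muscle (0.803%). In all, 21 of the 41 genes were called in at least 1 tissue, in 47 calls in fat and 1 in liver. The shares of members called ran from 23.3% to 43.3% in the 5 fat tissues. Median differences over the tested members were 0.15 in brown, -0.018 in gonadal, 0.11 in perirenal, -0.14 in inguinal and 0.059 in subcutaneous fat, with medians over all features from -0.033 to -0.021. When arrays were scaled to a common median instead, the median of all features in the 6 fat tissues lay between -0.29 and -0.18, and 10 of the 47 calls passed: Mmp12 in the 5 fat tissues where it was called, Mmp3, Mmp13 and Timp1 in perirenal fat, and Mmp9 and Adamts15 in inguinal fat. Of all features 0.554% then passed in brown, 0.517% in gonadal, 5.39% in perirenal, 1.79% in inguinal, 0.495% in subcutaneous and 0.011% in mesenteric fat, 0.0549% in liver and 3.26% in muscle. The sign stayed the same for the 47 calls except Timp3 in brown fat and Mmp2 and Mmp14 in gonadal fat.

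**Figure D2:**
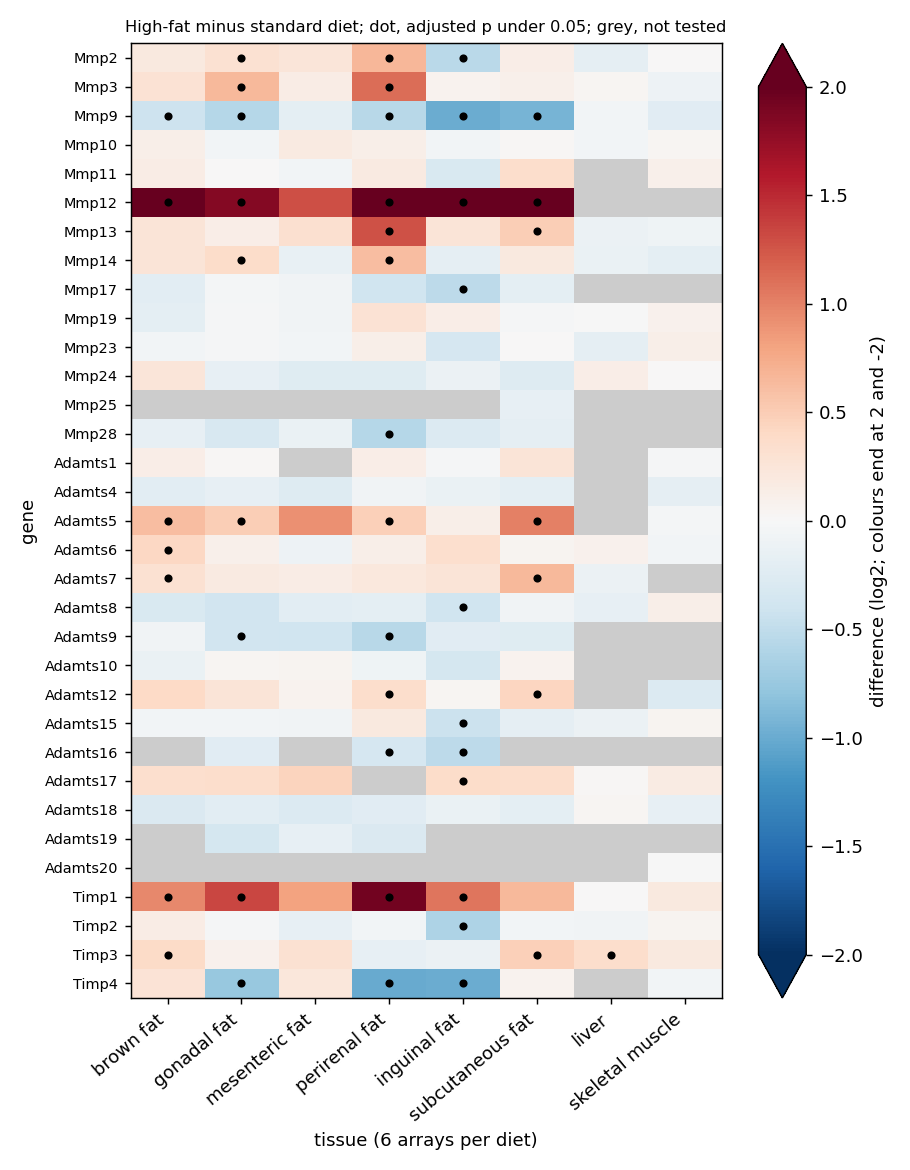
High-fat minus standard diet (log2) for each gene (rows) and tissue (columns), with 6 arrays per diet. Dots mark an adjusted p under 0.05 and grey cells were not tested. Mmp12 is red in every fat tissue, Mmp9 is dotted blue in 5, and the columns of mesenteric fat and muscle hold no dot.

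Mmp12, which degrades elastin and is secreted mainly by macrophages, had the largest difference of the tested genes in each of the 6 fat tissues and was called in 5. In perirenal fat its log2 intensity ranged from 8.17 to 10.16 on the standard diet, with a median of 9.13, and from 10.99 to 12.98 on the high-fat diet, with a median of 12.44. The groups did not overlap, and the difference was 3.07 ± 0.35 (adjusted p = 3.79e-05), or 8.38-fold. In subcutaneous fat it ranged from 7.56 to 9.13 on the standard diet, with a median of 8.24, and from 9.16 to 11.44 on the high-fat diet, with a median of 10.89, again without overlap, for a difference of 2.38 ± 0.32 (adjusted p = 0.000194). The brown fat arrays ranged from 6.82 to 7.44 on the standard diet, with a median of 7.05, and from 8.21 to 9.86 on the high-fat diet, with a median of 9.16, and the difference was 1.99 ± 0.25 (adjusted p = 0.000134). Inguinal fat differed by 1.99 ± 0.25 (adjusted p = 6.92e-05) and gonadal fat by 1.83 ± 0.30 (adjusted p = 0.00153), with no overlap of the groups in either. In mesenteric fat Mmp12 ranged from 6.75 to 8.67 on the standard diet, with a median of 7.69, and from 7.85 to 9.84 on the high-fat diet, with a median of 8.92. These groups overlapped and the difference of 1.29 ± 0.38 (adjusted p = 0.137) was not called. Mmp12 was not tested in liver and muscle, where all arrays lay between 6.11 and 6.61. Its second probe was too dim to be tested in any tissue.

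Without the dim arrays, Mmp12 differed by 2.29 ± 0.48 (adjusted p = 0.0315) in perirenal, 1.45 ± 0.30 (adjusted p = 0.039) in inguinal and 1.32 ± 0.17 (adjusted p = 0.00738) in brown fat. In gonadal fat the difference of 0.98 ± 0.33 (adjusted p = 0.267) and in subcutaneous fat that of 1.55 ± 0.39 (adjusted p = 0.103) did not pass on 2 against 6 arrays. High-fat replicates 1 and 2 were the lowest of their group for Mmp12 in all 6 fat tissues, and in perirenal fat they read 11.88 and 10.99 against 12.32 to 12.98 for the dim arrays. Macrophage markers moved with it. Of the 10 on the array, 8 of 10 tested were higher in perirenal fat, 5 of 9 in gonadal and in subcutaneous, 6 of 9 in inguinal, 5 of 6 in brown and 1 of 9 in mesenteric fat. Their mean in perirenal fat was 8.99 to 9.70 on the standard diet and 10.55 to 11.22 on the high-fat diet. It was 9.08 to 9.59 on the standard diet and 9.85 to 10.46 on the high-fat diet in gonadal fat, and in inguinal fat 8.88 to 9.60 on the standard diet and 9.57 to 10.02 on the high-fat diet. The subcutaneous arrays overlapped, at 8.91 to 9.90 on the standard diet and 9.43 to 9.94 on the high-fat diet, as did the brown ones at 7.46 to 8.12 on the standard diet and 7.97 to 8.56 on the high-fat diet and the mesenteric ones at 8.73 to 9.28 on the standard diet and 9.03 to 9.32 on the high-fat diet. Gpnmb, a marker of lipid-laden macrophages, rose in perirenal fat by 2.86 ± 0.21 (adjusted p = 8.9e-07), and Trem2 by 2.92 ± 0.22 (adjusted p = 1.42e-06). With a term for the dim arrays 7 macrophage markers were higher in perirenal fat, 2 in inguinal, 1 each in brown, gonadal and subcutaneous and 0 in mesenteric fat. The part of these markers in the Mmp12 difference was not tested.

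**Figure D3:**
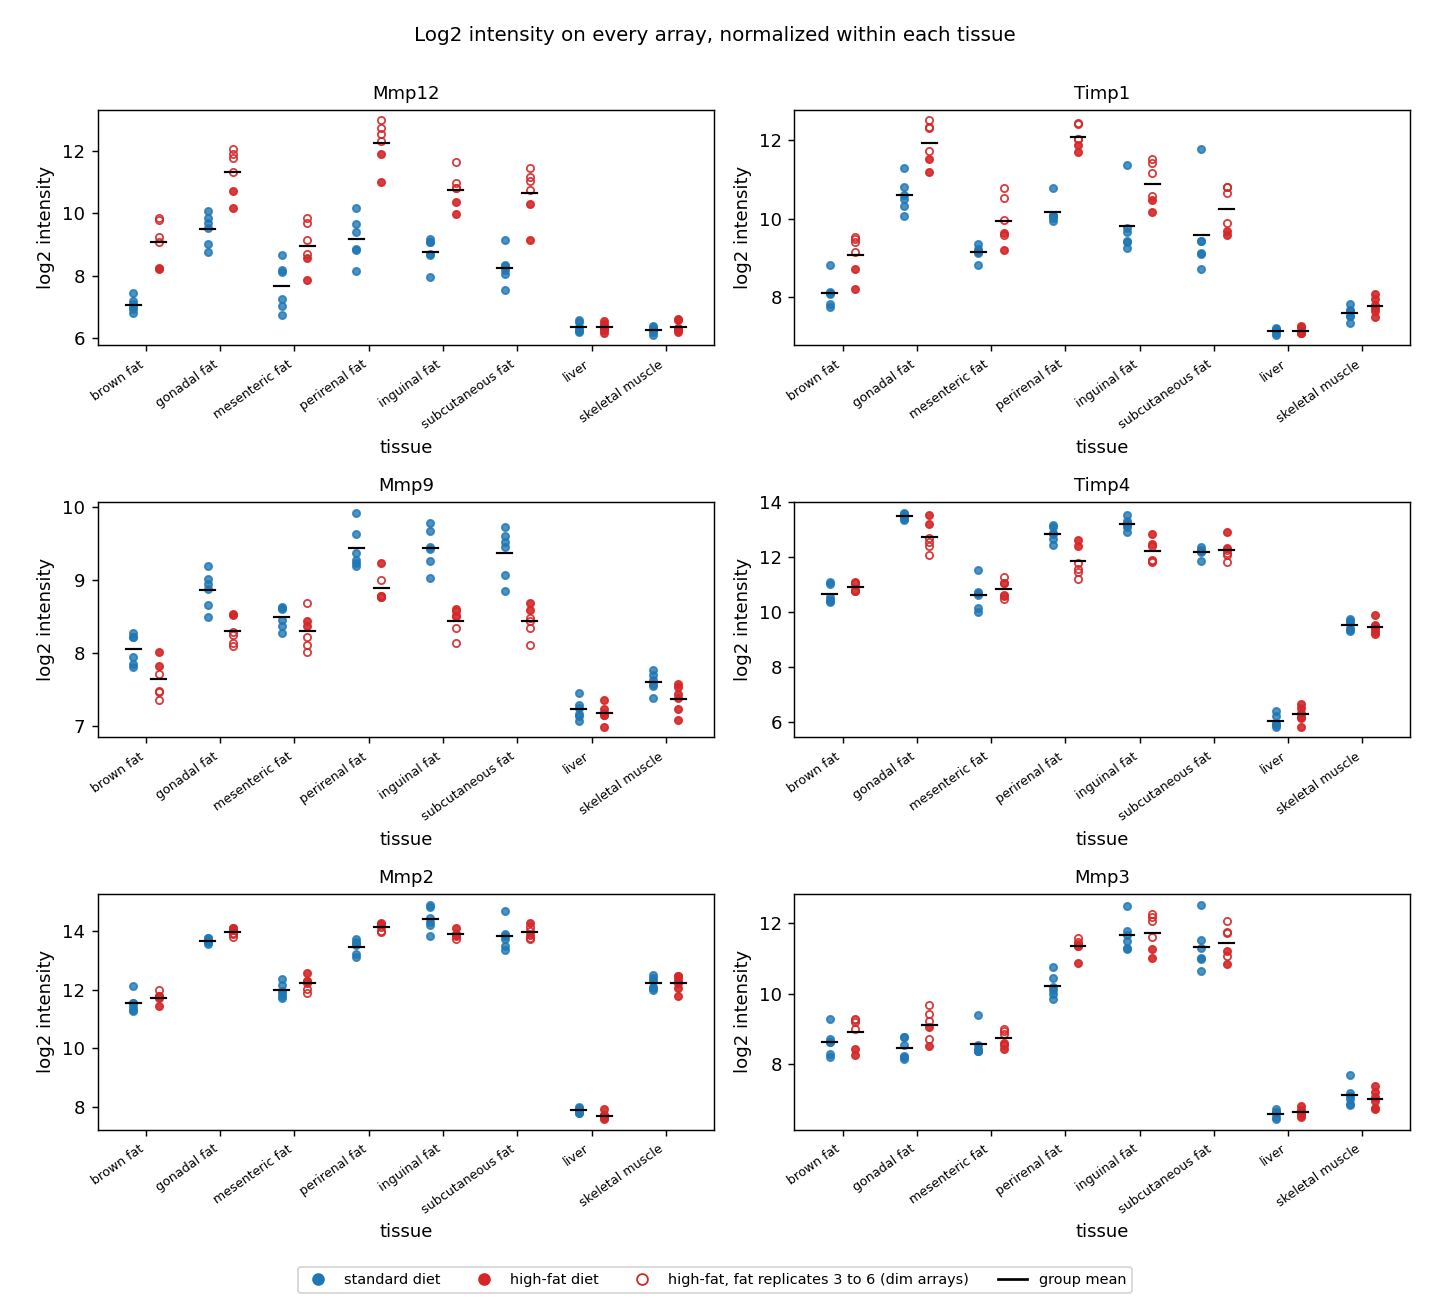
Log2 intensity of Mmp12, Timp1, Mmp9, Timp4, Mmp2 and Mmp3 on every array, with tissues on the x axis; points are single arrays, blue for the standard and red for the high-fat diet, open red points are the dim fat arrays (high-fat replicates 3 to 6) and bars are group means. The Mmp12 points of the 2 diets do not overlap in 5 fat tissues, and in inguinal and subcutaneous fat 1 standard-diet array stands high for Timp1.

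The collagenase Mmp13 and the stromelysin Mmp3, which lie in the same gene cluster as Mmp12, were called together with it in perirenal fat. Mmp13 ranged from 6.96 to 8.71 on the standard diet and from 8.74 to 9.40 on the high-fat diet. The lowest high-fat array lay above the highest standard-diet array by a small margin, and the difference was 1.27 ± 0.24 (adjusted p = 0.00181). Mmp13 also rose in subcutaneous fat, by 0.49 ± 0.14 (adjusted p = 0.022), and differed by 0.26 ± 0.17 (adjusted p = 0.258) in inguinal fat without passing. Mmp3 in perirenal fat ranged from 9.85 to 10.76 on the standard diet, with a median of 10.15, and from 10.87 to 11.59 on the high-fat diet, with a median of 11.40, without overlap, and rose by 1.12 ± 0.15 (adjusted p = 0.000162). In gonadal fat Mmp3 rose by 0.65 ± 0.18 (adjusted p = 0.0327) with overlapping groups, a call lost in 7 of 12 fits that each left out 1 array (adjusted p up to 0.0826), and in inguinal fat, where its level was highest, it differed by 0.069 ± 0.23 (adjusted p = 0.851). Its second probe gave 0.84 in perirenal and 0.51 in gonadal fat. The second probe of Mmp13 was too dim to be tested in any fat tissue. Mmp10, another stromelysin of the cluster, was tested in all 8 tissues and called in none. On the bright arrays alone Mmp3 differed by 0.88 ± 0.23 (adjusted p = 0.0682) and Mmp13 by 1.10 ± 0.42 (adjusted p = 0.172) in perirenal fat.

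The start regions of the 3 proteases that rose together in perirenal fat are shown with that of Timp1, the inhibitor that rose with them, as RefSeq gives them (assembly GRCm38.p6; 250 bases before to 50 after the transcript start, 5′ to 3′, all on the plus strand). Capitals mark the AP-1 motif TGANTCA and the TATA motif TATAAA, searched on both strands. The windows are chr9:7347124-7347423 for Mmp12, chr9:7272264-7272563 for Mmp13, chr9:7445572-7445871 for Mmp3 and chrX:20869916-20870215 for Timp1.
Mmp12: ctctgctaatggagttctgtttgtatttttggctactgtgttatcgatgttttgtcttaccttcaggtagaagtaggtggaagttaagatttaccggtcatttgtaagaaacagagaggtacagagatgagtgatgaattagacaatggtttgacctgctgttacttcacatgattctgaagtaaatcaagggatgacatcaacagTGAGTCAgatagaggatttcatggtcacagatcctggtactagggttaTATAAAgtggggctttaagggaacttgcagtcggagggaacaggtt
Mmp13: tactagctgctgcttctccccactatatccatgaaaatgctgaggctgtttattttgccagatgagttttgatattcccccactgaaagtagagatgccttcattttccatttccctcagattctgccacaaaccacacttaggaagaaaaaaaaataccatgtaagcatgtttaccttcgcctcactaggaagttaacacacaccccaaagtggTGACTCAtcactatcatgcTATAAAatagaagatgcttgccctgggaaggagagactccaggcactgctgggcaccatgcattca
Mmp3: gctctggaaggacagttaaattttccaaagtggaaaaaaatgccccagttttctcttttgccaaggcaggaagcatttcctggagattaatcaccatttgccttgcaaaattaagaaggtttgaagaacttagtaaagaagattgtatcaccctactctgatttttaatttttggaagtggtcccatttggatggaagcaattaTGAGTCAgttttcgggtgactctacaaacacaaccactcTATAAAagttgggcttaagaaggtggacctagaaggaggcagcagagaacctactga
Timp1: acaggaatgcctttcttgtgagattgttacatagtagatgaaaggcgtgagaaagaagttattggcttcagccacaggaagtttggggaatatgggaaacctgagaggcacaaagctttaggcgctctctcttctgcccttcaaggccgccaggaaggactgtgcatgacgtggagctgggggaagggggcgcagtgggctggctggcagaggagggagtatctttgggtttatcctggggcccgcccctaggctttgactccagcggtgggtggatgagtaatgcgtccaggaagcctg

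The AP-1 letters begin 44 bases before the start in Mmp12, 35 in Mmp13 and 46 in Mmp3, each followed by TATA letters. RefSeq windows were used for 27 of the 41 genes, 30 windows in all. Any member windows on a single chromosome, other than that of the cluster, were left out of these counts but kept in the count over all genes. Of the 30 windows, 7 (23.3%) held the AP-1 letters, against 7.81% of 32851 windows of the same length over all genes. All 7 belong to genes of the chromosome 9 cluster: Mmp3, Mmp7, Mmp10, Mmp12, Mmp13, Mmp1b and Mmp20. The window of Mmp8, in the same cluster, held no AP-1 letters. TATA letters were in 10 of 30 windows (33.3%) and in 13.6% of all windows. Of these 7 genes, Mmp7, Mmp1b and Mmp20 were too dim to be tested in any tissue. Mmp10 was called in none, and Mmp3, Mmp12 and Mmp13 were called in perirenal fat. Whether the motif goes with the response to diet was not tested. A second RefSeq start of Mmp12, at chr9:7344147-7344446, held neither motif, and nor did that of Mmp7, at chr9:7692091-7692390. The windows of the 4 Timp genes held neither motif. A match shows only that these letters are there.

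Of the 2 gelatinases, Mmp9 fell and Mmp2 moved in both directions. Mmp9, known from neutrophils, macrophages and other cells and stored or secreted as an inactive precursor, was lower in 5 fat tissues. Its inguinal values ranged from 9.02 to 9.78 on the standard diet, with a median of 9.44, and from 8.13 to 8.59 on the high-fat diet, with a median of 8.51, and the difference was -0.99 ± 0.12 (adjusted p = 7.06e-05) with no overlap. In subcutaneous fat Mmp9 ranged from 8.84 to 9.72 on the standard diet, with a median of 9.48, and from 8.10 to 8.69 on the high-fat diet, with a median of 8.46. These groups did not overlap either, and Mmp9 fell by 0.93 (SE 0.14, adjusted p = 0.000521). The differences were -0.56 ± 0.12 (adjusted p = 0.00844) in gonadal, -0.55 ± 0.13 (adjusted p = 0.00789) in perirenal and -0.41 ± 0.12 (adjusted p = 0.0349) in brown fat, with overlap in each, and -0.19 ± 0.12 (adjusted p = 0.412) in mesenteric fat. The brown fat call was lost in 7 of 12 fits that each left out 1 array (adjusted p up to 0.0851). Macrophage markers were higher on the same arrays. Of the 5 neutrophil markers on the array, 2 of 4 tested were higher in inguinal and in perirenal fat, 1 of 4 in gonadal and in subcutaneous fat, none of 4 in brown and none of 5 in mesenteric fat. S100a8 was among them in the 4 depots with a call, by 1.98 ± 0.13 (adjusted p = 2e-07) in inguinal fat. With a term for the dim arrays 1 neutrophil marker was higher in inguinal, perirenal and subcutaneous fat each, and none in gonadal fat. On replicates 1 and 2 of the high-fat diet alone, Mmp9 differed by -0.94 ± 0.18 (adjusted p = 0.0322) in inguinal, -0.76 ± 0.22 (adjusted p = 0.143) in subcutaneous, -0.36 ± 0.18 (adjusted p = 0.46) in gonadal and -0.15 ± 0.16 (adjusted p = 0.775) in brown fat.

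In perirenal fat Mmp2 ranged from 13.11 to 13.73 on the standard diet, with a median of 13.56, and from 13.98 to 14.27 on the high-fat diet, with a median of 14.17, with no overlap and a difference of 0.67 ± 0.11 (adjusted p = 0.000675). Gonadal fat rose by 0.31 ± 0.077 (adjusted p = 0.0177), also without overlap. Inguinal fat went the other way: Mmp2 ranged from 13.84 to 14.90 on the standard diet, with a median of 14.38, and from 13.74 to 14.09 on the high-fat diet, with a median of 13.89, the groups overlapped, and the difference was -0.53 ± 0.15 (adjusted p = 0.0184). The other fat depots did not pass, at 0.13 ± 0.18 (adjusted p = 0.62) in subcutaneous and 0.20 ± 0.13 (adjusted p = 0.311) in brown fat. Its activator Mmp14 rose in the same 2 abdominal depots, by 0.62 ± 0.12 (adjusted p = 0.0017) in perirenal and 0.37 ± 0.097 (adjusted p = 0.023) in gonadal fat, and differed by -0.17 ± 0.11 (adjusted p = 0.267) in inguinal fat. Under median scaling the gonadal differences of Mmp2 and Mmp14 turned to -0.13 and -0.075, neither called, with the median of all features at -0.26. The gonadal call of Mmp14 was also lost in 2 of 12 fits that each left out 1 array (adjusted p up to 0.0594). Without the dim arrays Mmp2 differed by 0.75 ± 0.17 (adjusted p = 0.038) in perirenal, 0.41 ± 0.098 (adjusted p = 0.137) in gonadal and -0.39 ± 0.22 (adjusted p = 0.414) in inguinal fat. Of 7 fibroblast markers, 4 were higher in perirenal and 3 in gonadal fat, and 2 were lower in inguinal fat (Fbln1 and Pdgfra). In brown fat 3 were higher, and in subcutaneous fat 3 were higher and 1 lower, where neither Mmp2 nor Mmp14 was called. With a term for the dim arrays 2 were higher in perirenal, 1 in gonadal and none in the other fat tissues, and none was lower. Their mean was 11.58 to 11.99 on the standard diet and 12.10 to 12.76 on the high-fat diet in perirenal fat and 11.87 to 12.56 on the standard diet and 11.86 to 12.36 on the high-fat diet in inguinal fat.

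Of the other Mmps, the lipid-anchored membrane protease Mmp17 was lower in inguinal fat, at -0.52 ± 0.17 (adjusted p = 0.0333), and was not called in the 5 other tissues where it was tested. High-fat replicate 3 stood low at 6.48, and the call was lost in 5 of 12 fits that each left out 1 array (adjusted p up to 0.0696). Mmp28, a secreted protease first known from skin and testis, was lower in perirenal fat, at -0.57 ± 0.13 (adjusted p = 0.00736), where its groups did not overlap and its second probe gave -0.73. The second probe of Mmp28 was also lower in inguinal fat, at -0.66 (adjusted p = 0.0353), where the brightest was not called. Mmp10, Mmp11, Mmp19, Mmp23, Mmp24 and Mmp25 were called in no tissue by their brightest probe. A second Mmp19 probe was higher in gonadal fat, at 0.41 (adjusted p = 0.00519), in inguinal fat, at 0.51 (adjusted p = 0.0108), and in perirenal fat, at 0.43 (adjusted p = 0.0215), so the probes of Mmp19 disagree.

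The 4 inhibitors did not move together. Timp1, which blocks most secreted Mmps and is a known marker of tissue repair, rose in 4 fat tissues. In perirenal fat its values ranged from 9.93 to 10.79 on the standard diet, with a median of 10.07, and from 11.72 to 12.44 on the high-fat diet, with a median of 12.03. The groups lay apart, and the difference of 1.92 ± 0.16 (adjusted p = 2.42e-06) was 3.79-fold. Gonadal fat ranged from 10.07 to 11.29 on the standard diet, with a median of 10.55, and from 11.19 to 12.51 on the high-fat diet, with a median of 12.03, with a narrow overlap and a difference of 1.34 ± 0.23 (adjusted p = 0.00211). Inguinal fat differed by 1.08 ± 0.32 (adjusted p = 0.025), a call lost in 6 of 12 fits that each left out 1 array (adjusted p up to 0.0628), and brown fat by 0.96 ± 0.22 (adjusted p = 0.00884). In subcutaneous fat Timp1 ranged from 8.73 to 11.79 on the standard diet, with a median of 9.27, and from 9.59 to 10.81 on the high-fat diet, with a median of 10.29, and the difference of 0.64 ± 0.41 (adjusted p = 0.269) was not called. That comparison turned on 1 array: standard-diet replicate 2 read 11.79 and the next highest standard-diet array 9.44, and without it the difference was 1.08 (adjusted p = 0.00578). Standard-diet replicate 2 was also the high array for Timp1 in inguinal fat, at 11.39, and in brown fat, at 8.82. Mesenteric fat differed by 0.81 ± 0.23 (adjusted p = 0.123) and did not pass, and liver differed by 0.0034 ± 0.059 (adjusted p = 0.994). Leaving out the dim arrays, the Timp1 difference was 1.63 ± 0.21 (adjusted p = 0.00422) in perirenal and 0.76 ± 0.27 (adjusted p = 0.285) in gonadal fat, 0.53 ± 0.46 (adjusted p = 0.621) in inguinal and 0.38 ± 0.26 (adjusted p = 0.624) in brown fat.

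Timp4, an inhibitor with a narrow tissue range that includes heart and fat, moved the other way in 3 white depots. In inguinal fat it ranged from 12.93 to 13.53 on the standard diet, with a median of 13.22, and from 11.83 to 12.86 on the high-fat diet, with a median of 12.16, without overlap, and the difference was -0.99 ± 0.17 (adjusted p = 0.000785). In perirenal fat it ranged from 12.46 to 13.16 on the standard diet, with a median of 12.87, and from 11.21 to 12.63 on the high-fat diet, with a median of 11.69, with overlap, at -1.01 ± 0.22 (adjusted p = 0.00467), and in gonadal fat the difference was -0.75 ± 0.19 (adjusted p = 0.0192). Subcutaneous fat showed 0.068 ± 0.15 (adjusted p = 0.763) and brown fat 0.27 ± 0.13 (adjusted p = 0.159). The gonadal call was lost in 2 of 12 fits that each left out 1 array (adjusted p up to 0.0512). In these 3 depots the lowest Timp4 readings were those of the dim arrays. In gonadal fat high-fat replicates 1 and 2 read 13.20 and 13.53, inside or near the standard-diet range, and replicates 3 to 6 read 12.08 to 12.71. Without the dim arrays Timp4 differed by -0.52 ± 0.15 (adjusted p = 0.107) in inguinal, -0.33 ± 0.18 (adjusted p = 0.335) in perirenal and -0.13 ± 0.12 (adjusted p = 0.714) in gonadal fat. Of the 6 adipocyte markers, all tested, 1 was higher and 1 lower in gonadal, 1 higher and 2 lower in perirenal, and none higher and 1 lower in inguinal fat, and 2 were higher and 1 lower in subcutaneous fat. The median differences of these markers were -0.090 in gonadal, -0.28 in perirenal, -0.17 in inguinal and -0.080 in subcutaneous fat. The lipase Lipe, singled out from this mixed list, was lower in each of these depots, at -0.89 ± 0.12 (adjusted p = 0.000159) in inguinal fat. They include subcutaneous fat, where Timp4 was not called. The part of adipocyte content in the Timp4 differences was not tested.

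Timp3, which stays bound to the matrix and blocks Adamts proteases as well as Mmps, rose in subcutaneous fat by 0.48 ± 0.091 (adjusted p = 0.00248). There it ranged from 13.40 to 13.88 on the standard diet, with a median of 13.70, and from 14.04 to 14.33 on the high-fat diet, with a median of 14.10, without overlap. It rose in brown fat by 0.38 ± 0.09 (adjusted p = 0.0123) and in liver by 0.36 ± 0.083 (adjusted p = 0.0454), the 1 call outside fat. The brown fat difference turned to -0.034 under median scaling, with the median of all features at -0.23. In liver Timp3 ranged from 8.97 to 9.38 on the standard diet, with a median of 9.32, and from 9.44 to 9.78 on the high-fat diet, with a median of 9.58, without overlap, and the call was lost in 9 of 12 fits that each left out 1 array (adjusted p up to 0.123). Its inguinal and perirenal differences were -0.12 ± 0.076 (adjusted p = 0.248) and -0.17 ± 0.085 (adjusted p = 0.157). Of the 2 other Timp3 probes, 1 was called in inguinal fat, at 0.65, where the brightest probe was not, so the probes disagree there, and the other was called in subcutaneous fat, at 0.34. Timp2, which both blocks Mmp2 and helps Mmp14 to activate it, was lower in inguinal fat, at -0.62 ± 0.20 (adjusted p = 0.0372), and was called in none of the other 7 tissues. In that depot Timp2 ranged from 13.26 to 14.96 on the standard diet, with a median of 14.18, and from 13.34 to 13.80 on the high-fat diet, with a median of 13.42, with the high-fat arrays inside the standard-diet range. That call was lost in 9 of 12 fits that each left out 1 array (adjusted p up to 0.0771).

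Among the Adamts genes, the aggrecanase Adamts5 was the member called most often. In subcutaneous fat it ranged from 11.22 to 11.78 on the standard diet, with a median of 11.58, and from 12.35 to 12.74 on the high-fat diet, with a median of 12.58, without overlap, and rose by 1.00 ± 0.10 (adjusted p = 2.12e-05). It rose in brown fat by 0.61 ± 0.12 (adjusted p = 0.00427), in gonadal fat by 0.50 ± 0.13 (adjusted p = 0.0242) and in perirenal fat by 0.48 ± 0.15 (adjusted p = 0.0288), while inguinal fat differed by 0.12 ± 0.099 (adjusted p = 0.379) and mesenteric fat by 0.91 ± 0.22 (adjusted p = 0.0797). Its second probe gave 0.96 in subcutaneous and 0.52 in brown fat, both called, and 0.37 in gonadal and 0.15 in perirenal fat, neither called. Its remaining probe was called in perirenal fat, at 0.30, and in no other tissue where it was tested. The gonadal call of the brightest probe was lost in 3 of 12 fits that each left out 1 array (adjusted p up to 0.0638) and the perirenal one in 3 of 12 fits that each left out 1 array (adjusted p up to 0.0619). Without the dim arrays Adamts5 differed by 0.89 ± 0.15 (adjusted p = 0.0303) in subcutaneous, 0.66 ± 0.15 (adjusted p = 0.115) in gonadal and 0.74 ± 0.20 (adjusted p = 0.0668) in perirenal fat, in the last 2 by more than with all arrays. Adamts7, which like Adamts12 cuts COMP, rose in subcutaneous fat by 0.64 ± 0.10 (adjusted p = 0.000721) and in brown fat by 0.31 ± 0.097 (adjusted p = 0.0437), the latter a call lost in 9 of 12 fits that each left out 1 array (adjusted p up to 0.0983). In subcutaneous fat it ranged from 7.78 to 8.39 on the standard diet, with a median of 8.03, and from 8.48 to 8.88 on the high-fat diet, with a median of 8.69, without overlap.

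Adamts12 rose in subcutaneous fat by 0.44 ± 0.11 (adjusted p = 0.0131) and in perirenal fat by 0.36 ± 0.12 (adjusted p = 0.0433). Its second probe was lower instead, at -0.33 in subcutaneous fat (adjusted p = 0.0326) and -0.45 in brown fat (adjusted p = 0.0459), so the direction for this gene depends on the probe. Adamts6 rose in brown fat by 0.41 ± 0.12 (adjusted p = 0.0273). The proteoglycanase Adamts9 was lower in perirenal fat, at -0.56 ± 0.13 (adjusted p = 0.00573), and in gonadal fat, at -0.38 ± 0.11 (adjusted p = 0.0408). Adamts16 was lower in inguinal fat, at -0.52 ± 0.16 (adjusted p = 0.0322), and in perirenal fat, at -0.34 ± 0.093 (adjusted p = 0.0163). In inguinal fat Adamts8 differed by -0.40 ± 0.11 (adjusted p = 0.0188), Adamts15 by -0.42 ± 0.14 (adjusted p = 0.0383) and Adamts17 by 0.36 ± 0.12 (adjusted p = 0.0395), the last being the 1 Adamts gene called higher in that depot. Of these calls the following were lost when 1 array was left out: perirenal Adamts12 in 8 of 12 fits, brown Adamts6 in 5, gonadal Adamts9 in 9, and inguinal Adamts16, Adamts15 and Adamts17 in 7, 7 and 9. Without high-fat replicate 5, which stood low at 7.49, the gonadal difference of Adamts9 was -0.33 (adjusted p = 0.0917). In inguinal fat Adamts17, at 6.90 on the standard diet, passed the filter only through its high-fat arrays. Adamts8, at 7.41 on the standard diet there, passed it only through its standard-diet arrays. Both calls rest on signals near the filter limit. Adamts1, Adamts4, Adamts10 and Adamts18, each tested in 6 to 8 tissues, were called in none, nor were Adamts19 in 3 tissues and Adamts20 in 1.

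In 3 tissues the diet gave few or no calls. In mesenteric fat 7 of 29 genes had an unadjusted p under 0.05, with Adamts5, Timp1, Mmp12, Timp3 and Adamts17 higher and Adamts9 and Adamts18 lower, and none passed the adjustment. The mesenteric arrays also differed most in what else they held: the mean of the pancreas markers was 8.003 to 15.50 on the standard diet and 14.97 to 15.69 on the high-fat diet. Among the mesenteric genes, Mmp12 and Timp3 were called when all 96 arrays shared 1 fit (adjusted p = 0.00606 and 0.0131). Under the alternatives up to 1596 of all features were called in mesenteric fat, against 118 in the main test. In muscle 6 of 24 genes had an unadjusted p under 0.05, with Timp1 at 0.19 ± 0.096 (adjusted p = 0.588) and Mmp2 at 0.0013 ± 0.12 (adjusted p = 0.999) not among them. The share of all features with an unadjusted p under 0.05 is not given here for mesenteric fat or muscle. Those counts are therefore not a result about the family. In liver Mmp2 differed by -0.18 ± 0.068 (adjusted p = 0.317), Mmp14 by -0.13 ± 0.12 (adjusted p = 0.814) and Timp2 by -0.064 ± 0.065 (adjusted p = 0.84), and 1 macrophage marker, Lyz2, was lower at -0.50 ± 0.094 (adjusted p = 0.0101).

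Whether the diet effect differed between tissues was tested directly. Over the 8 tissues it did for 14 of 29 genes, against 30.1% of all features, led by Mmp12 (adjusted p = 1.67e-08), Timp4 (9.71e-07), Timp3 (1.39e-06) and Mmp9 (9.01e-06). Timp1 (adjusted p = 0.00118), Timp2 (0.0163) and Mmp14 (0.00108) passed too. Among the 5 white depots alone, 7 of 31 differed, against 10.8% of all features: Timp3, Mmp2, Timp4, Mmp14, Mmp9, Mmp13 and Adamts5, with adjusted p from 6.05e-05 to 0.0162. Mmp12 (adjusted p = 0.12), Timp1 (0.27) and Timp2 (0.116) did not pass there. With the replicate number as a block 15 genes passed among the white depots, with Mmp12 (adjusted p = 0.00177), Timp1 (0.043) and Timp2 (0.0344) among them, and same-numbered arrays are not known to be paired. On the bright arrays alone 4 genes passed over the 8 tissues, Mmp12, Adamts5, Mmp2 and Mmp9, and none over the white depots (lowest adjusted p = 0.441). The number of all features called moved between the settings too. Over the 8 tissues the alternatives gave 908 to 7761, against 5452 in the main test. Over the white depots they gave 109 to 4279, against 1944. The share of all features under each single setting is not given here.

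**Figure D4:**
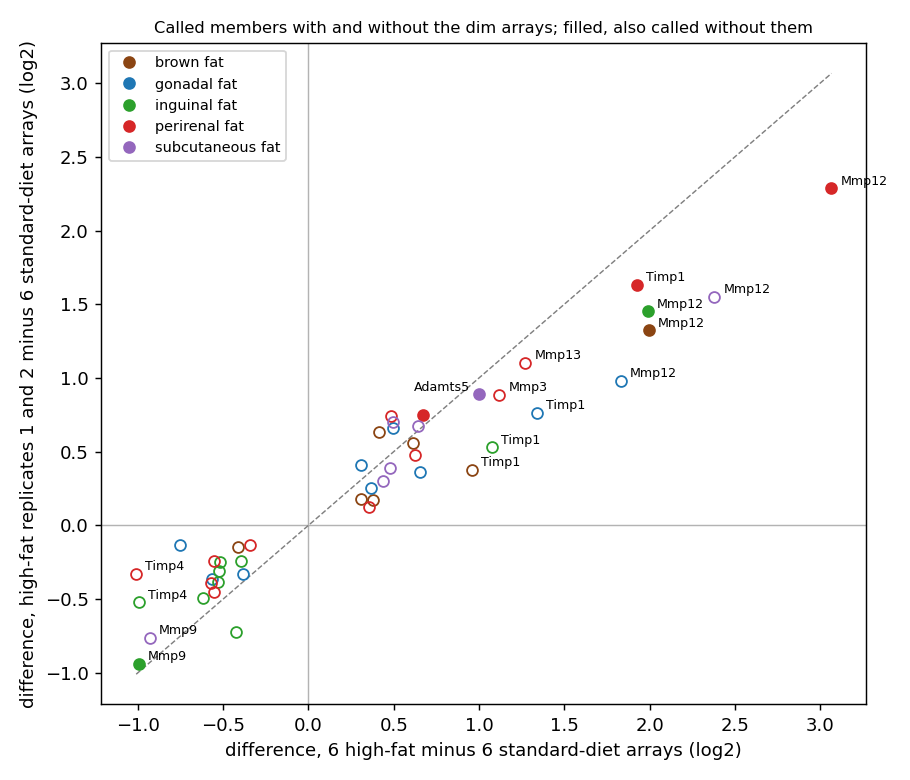
Difference between diets (log2) of the called genes in 5 fat tissues with all 6 high-fat arrays (x axis) against that with high-fat replicates 1 and 2 alone (y axis), both against the same 6 standard-diet arrays; colours are tissues, filled points are called on both, and the dashed line marks equal values. All 46 points lie on the same side of 0 on both axes, 38 are smaller in size without the dim arrays, and 7 are filled.

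Of the 47 calls in fat, 46 could be repeated without the dim arrays, and all 46 had the same sign, which the shared arrays favour. In size 38 of them were smaller, and 7 were called: Mmp12 in brown, inguinal and perirenal fat, Timp1 and Mmp2 in perirenal fat, Mmp9 in inguinal fat and Adamts5 in subcutaneous fat. By tissue, 0.388% of all features were called on these arrays in brown, 0.328% in gonadal, 2.39% in inguinal, 4.77% in perirenal and 0.64% in subcutaneous fat. With all arrays kept and a term for the dim ones, 12 of the 47 calls remained, namely 1 in brown fat (0.985% of all features passed), 0 in gonadal (0.867%), 3 in inguinal (3.88%), 5 in perirenal (7.21%) and 3 in subcutaneous fat (2.33%). With the brightness of each array as a covariate 34 calls remained, and the shares of all features were 6.64% in brown, 6.78% in gonadal, 11.1% in inguinal, 19.3% in perirenal and 11.6% in subcutaneous fat, 0.181% in mesenteric fat, 1.16% in liver and 0.055% in muscle. Diet and the dim arrays overlap in these groups, and their parts cannot be told apart beyond these values.

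Many of the substrates of these proteases were higher on the high-fat diet in 4 of the fat tissues. From a list of 24 collagen and other matrix genes, 11 of 20 tested were higher and none lower in brown fat, 11 of 20 in gonadal, 10 of 20 in perirenal and 12 of 20 in subcutaneous fat. Of all features 6.77%, 6.12%, 13.3% and 8.78% were called higher in these 4 tissues. In inguinal fat 1 of 21 was higher (Sparc) and 2 lower, elastin (Eln), at -0.58 ± 0.11 (adjusted p = 0.00156), and the laminin chain Lamc1, and in mesenteric fat, liver and muscle none was called. Col3a1, a fibrillar collagen, rose by 1.37 ± 0.21 (adjusted p = 0.000446) in perirenal and 0.83 ± 0.22 (adjusted p = 0.0234) in gonadal fat, and Col1a1 by 1.02 ± 0.12 (adjusted p = 5.89e-05) and 1.08 ± 0.12 (adjusted p = 9.58e-05). Of 13 collagen-processing genes the crosslinking enzyme Lox was higher in 5 fat tissues, by 0.96 ± 0.13 (adjusted p = 0.00013) in perirenal fat. Col1a1, Col3a1, Dcn and Lum stand in the fibroblast marker list too. The median differences of the matrix list were 0.30 in perirenal and 0.43 in gonadal fat. With a term for the dim arrays, 7 matrix genes were called higher in perirenal fat, 3 in subcutaneous, 2 in gonadal and none in brown or inguinal fat.

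A list of 18 genes held proteins that activate, bind or clear these proteases and their products. Of those tested, 3 of 12 were higher and none lower in brown, 3 of 13 higher and 1 lower in gonadal, 5 of 12 higher and 1 lower in inguinal, 2 of 13 higher and none lower in mesenteric, 4 of 13 higher and 2 lower in perirenal, and 3 of 12 higher and 1 lower in subcutaneous fat. None was called of 10 in liver and 13 in muscle. The shares of all features called were 15%, 12.2%, 23.6%, 0.648%, 26.5% and 19.9% in the 6 fat tissues in that order. Mrc2, the receptor that takes up collagen fragments, was higher in all 6 fat tissues, from 0.56 ± 0.096 (adjusted p = 0.00096) in inguinal to 1.97 ± 0.11 (adjusted p = 1.51e-07) in gonadal fat, mesenteric fat included at 1.07 ± 0.18 (adjusted p = 0.0146). With a term for the dim arrays no gene of the list was called in mesenteric fat, 1 was higher in brown and in gonadal, 2 in inguinal, 4 in perirenal and 3 in subcutaneous fat, and 2 were lower in inguinal and 1 in perirenal fat. Lcn2, a secreted protein that binds Mmp9 and protects it from breakdown, rose by 3.30 ± 0.17 (adjusted p = 1.43e-07) in perirenal fat and was higher in 5 fat tissues, opposite to Mmp9 in 4 of them. The urokinase receptor Plaur rose in the gonadal, perirenal, inguinal and subcutaneous depots, by 1.15 ± 0.10 (adjusted p = 4.5e-06) in perirenal fat, and the convertase Pcsk6 was lower in the same 4, at -1.11 ± 0.11 (adjusted p = 1.42e-05) in perirenal fat. Cd44, the hyaluronan receptor that can hold Mmp9 at the cell surface, rose in 4. Of 14 Adam and Adamtsl relatives, 1 of 10 tested was higher in brown, 2 of 12 in gonadal, 3 of 12 in inguinal (3 lower), 4 of 12 in perirenal (1 lower) and 5 of 12 in subcutaneous fat, and none of 11 in mesenteric fat. With a term for the dim arrays 1 was higher in gonadal, inguinal and perirenal fat each, and none in brown or subcutaneous fat. The leukocyte protease Adam8 rose in 4 white depots, by 1.83 ± 0.17 (adjusted p = 7.32e-06) in perirenal fat, and Adam12 in the same 4, by 1.22 ± 0.15 (adjusted p = 7.14e-05) in inguinal fat.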

How the data were processed

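RNA of 8 tissues was measured on 96 arrays of Illumina Mouse-6 BeadChips, 1 array for each sample. The deposited table of intensity values, not normalized per the file headers, holds 46632 probes. The deposited table of log2 values made by the authors served as an alternative. The software behind either table is not given in the sources used here. Intensities were background-modelled with normexp (offset 50) and quantile normalized in limma 3.58.1 (R 4.3.3). Probes whose mean lay above the median of all probes were kept, 1 for each gene, and lmFit and eBayes were used with Benjamini-Hochberg adjustment over all features. The number of arrays, 6 for each tissue and diet, limits the precision. The members, lists and tests were chosen with earlier results of these data known. Named genes are, in each tissue and direction, up to 8 called members with the smallest adjusted p, the 8 leading called members of each joint test, and always Timp1 to Timp4, Mmp2, Mmp12 and Mmp14; others were singled out after their values were seen. Same-numbered arrays share only a number as far as the labels say. Within a tissue, between 2 and 4 of 6 pairs had deviations correlated above 0.1, and no block was used in the main tests. Across tissues, limma put the correlation of same-numbered arrays of a diet at 0.12 for levels in 8 tissues and 0.24 in 6 fat tissues. For the diet effect it was 0.20 over 8 tissues and 0.33 over the white depots. The main tests across tissues treat such arrays as independent. Whether they come from the same animals is not stated. Dissection ran over successive days, and the labels do not tie an array to a day or chip. Alternatives changed the values, background, scaling, filter, probes, samples and covariates. Calculations were tested on simulated data.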

Additional observations from a re-analysis of the deposited data

Results flagged for a closer look

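In 13 of 160 groups of 6 arrays checked, 1 array lay far from the others, and chance alone gives about 1 in 20 such groups. Standard-diet replicate 2 was high for Timp1 in brown fat (8.82, nearest array 8.14), in inguinal fat (11.39, nearest 9.77) and in subcutaneous fat (11.79, nearest 9.44). It was also high for Mmp2 in brown fat (12.14) and for Mmp14 in brown fat (10.48) and subcutaneous fat (13.01). Standard-diet replicate 5 was high for Timp1 in perirenal fat (10.79) and low for Timp4 in subcutaneous fat (11.86). Among high-fat arrays, replicate 5 was low for Adamts9 in gonadal fat (7.49), replicate 3 was low for Mmp17 in inguinal fat (6.48) and replicate 2 was low for Mmp3 in perirenal fat (10.87). High-fat replicate 2 was high for Timp3 in inguinal fat (14.20), and high-fat replicate 1 was high for Mmp2 in liver (7.94).

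The diet effect differed between the 8 tissues for 14 genes by limma's test of the tissue-by-diet interaction. The adjusted p was 1.67e-08 for Mmp12, 9.71e-07 for Timp4, 1.39e-06 for Timp3, 9.01e-06 for Mmp9 and 1.86e-05 for Mmp13. It was 3.35e-05 for Mmp2, 5.66e-05 for Adamts5, 0.00108 for Mmp14, 0.00118 for Timp1 and 0.00597 for Adamts7. The remaining adjusted p values were 0.012 for Mmp3, 0.0163 for Timp2, 0.0165 for Adamts12 and 0.0438 for Mmp24. Among the 5 white depots 7 genes passed, with adjusted p of 6.05e-05 for Timp3, 0.000454 for Mmp2, 0.00161 for Timp4, 0.0046 for Mmp14, 0.00944 for Mmp9, 0.0142 for Mmp13 and 0.0162 for Adamts5. The dim high-fat arrays enter both tests, and on the bright arrays alone 4 and 0 genes passed.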

How the results depend on the processing

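Numbers of called genes are given below in the order brown, gonadal, inguinal, perirenal and subcutaneous fat, against 7, 9, 11, 13 and 7 in the report, and the cause of each change was not tested beyond what the alternative itself changes. Scaling to a common median gave 1, 1, 3, 4 and 1, with 0 in liver and 1 in muscle (Mmp9). It turned Timp3 in brown fat to -0.034 (adjusted p = 0.894), Mmp2 in gonadal fat to -0.13 (adjusted p = 0.695) and Mmp14 in gonadal fat to -0.075 (adjusted p = 0.809). A term for the dim arrays gave 1, 0, 3, 5 and 3, and bright arrays alone, with fewer samples, gave 1, 0, 2, 3 and 1. Brightness as a covariate gave 4 in inguinal fat and 0 in liver. All 96 arrays in 1 fit gave 11 in brown and 6 in mesenteric fat. Apart from the fits without 1 array, the alternatives called 70 to 3561 of all features in brown fat, against 2717 in the main test. In mesenteric fat they called 0 to 1596, against 118. In liver the 1 call was lost with the deposited log2 values and with no filter on dim probes, at 0 each. The test of the diet effect between 8 tissues gave 3 under median scaling, 4 on bright arrays and 9 without perirenal fat, against 14. Between white depots it gave 0 under median scaling, 0 on bright arrays, 4 without inguinal fat and 15 with the replicate block, against 7. Of all features, the alternatives called 908 to 7761 between 8 tissues, against 5452, and 109 to 4279 between white depots, against 1944. In the diet tests the replicate block gave 7, 9, 11, 13 and 8, with 0 in mesenteric fat, 1 in liver and 0 in muscle, and same-numbered arrays are not known to be paired. Without 1 array the counts ran from 4 to 12 in brown, 4 to 11 in gonadal, 6 to 12 in inguinal, 0 to 1 in mesenteric, 11 to 15 in perirenal and 7 to 8 in subcutaneous fat, 0 to 1 in liver and 0 to 0 in muscle. The number of all features called moved in these fits too. It ran from 1539 to 4127 in brown, 1330 to 3004 in gonadal, 3075 to 5380 in inguinal and 52 to 153 in mesenteric fat. In perirenal fat it was 3586 to 5397, in subcutaneous 2301 to 4437, in liver 129 to 239 and in muscle 13 to 33. Changes in the member counts are therefore not a result about the family. The deposited log2 values kept 45 of the 47 calls in fat. Signals near background limit the dim genes, of which 8 were not tested.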
